A study of Homo sapiens with 18 samples.

Results

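The response of untreated MDA-MB-231 cells to hypoxia was examined on 6 arrays of the 18 in the series: 3 of cells kept at 20% oxygen (N) and 3 of cells kept at 1% oxygen (H), both for 16 hours in medium without serum and with no drug. MDA-MB-231 is an established human breast cancer cell line of the triple-negative, mesenchymal-like kind, and the line alone was used, so the values describe 1 genetic background. The other 12 arrays, of cells with paclitaxel or epirubicin, entered alternatives to the comparison only. Arrays were chosen by their titles. The source names of the arrays titled as the third N and H replicates give epirubicin instead of no drug, at the same oxygen level, so each result was computed with all 6 arrays and again with arrays 1 and 2 of each group. By their values, the third H array correlated with the other H arrays at 0.9978 to 0.998 and with the 2 epirubicin arrays its source name points to at 0.943 to 0.947, and the third N array at 0.9984 to 0.9987 and 0.958 to 0.977. These correlations run across probe sets, which are no independent replicates.

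Cells sense oxygen through prolyl hydroxylases, the EGLN enzymes, which use it to mark the α subunits of hypoxia-inducible factor (HIF) for destruction by the VHL ubiquitin ligase. When oxygen is short, the α subunit accumulates, pairs with ARNT and binds DNA at hypoxia response elements, whose core is ACGTG or GCGTG. Known targets of HIF bring glucose into the cell, run glycolysis, hold pyruvate out of the mitochondrion, modify collagen and call in blood vessels.

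Values were log2 signals after GC-RMA, a background correction and normalization for Affymetrix arrays. A probe set counted as present above 3.14 on this scale, and between 42.1% and 42.4% of probe sets were present on each array. Present on at least 2 arrays of a group were 23352 of 54613 probe sets, which were tested with limma, and a difference was called at a Benjamini-Hochberg adjusted p under 0.05 over all of them. For gene counts, 1 probe set stood for each of 11000 named genes, the one of highest mean signal. VIM, CD44, AXL, CAV1 and MSN, all 5 markers taken for this line, were present on all 6 arrays, and ESR1, PGR and CDH1 were under the threshold on all of them. EPCAM and GATA3, also listed as low in this line, were above it, EPCAM at 6.66 to 6.91 in N and 6.84 to 7.16 in H and GATA3 at 8.56 to 8.79 in N and 7.84 to 8.12 in H. Of the 4 leukocyte markers with a named probe set, 0 were present, and of 5 keratinocyte markers KRT10 alone was. The hepatoma markers APOA1 and TTR each sat at 1 unchanging value just above the threshold, and ALB, APOB and AFP were under it. The 3′ and 5′ control probe sets of ACTB, a sign of RNA integrity, differed by -0.042 to 0.040 log2 units in N and by 0.071 to 0.306 in H, and those of GAPDH by 0.457 to 0.460 in N and 0.358 to 0.414 in H. Both moved with oxygen, in opposite directions, and their part in the results below was not tested.

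Hypoxia changed many transcripts, with more falls than rises but larger rises than falls. Of the 11000 genes, 1058 (9.62%) were higher and 2260 (20.5%) were lower in H than in N (n = 3 arrays per group). Changes of at least 2-fold were as frequent in both directions, with 229 genes higher and 228 lower. Above that the rises led, with 57 genes at least 4-fold higher against 9 lower, 23 at least 8-fold higher against 1 lower, and 9 at least 16-fold higher against 0 lower. Median changes of the called genes were 0.62 log2 units upward and -0.55 downward, while the median of all genes was -0.06. All 3318 called genes had N and H arrays that did not overlap, as had 5311 of the 11000 genes tested. The values come from bulk RNA, in which a lower level in every cell and fewer cells with the transcript cannot be told apart.

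With arrays 1 and 2 only, limma called 505 genes higher (4.62%) and 649 lower (5.93%) of 10941, and 1091 of these 1154 were also called, in the same direction, with 6 arrays. Quantile normalization of the 6 arrays moved the share of rises among called probe sets from 34.5% to 45.0%. For the genes called at least 2-fold higher, the median difference of H minus N was 1.66 in replicate 1, 1.53 in replicate 2 and 1.34 in replicate 3. For those at least 2-fold lower it was -1.36, -1.10 and -1.21. These genes were picked with all 6 arrays, so the direction in replicate 3 follows from the choice and is no separate check of it.

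**Figure D1:**
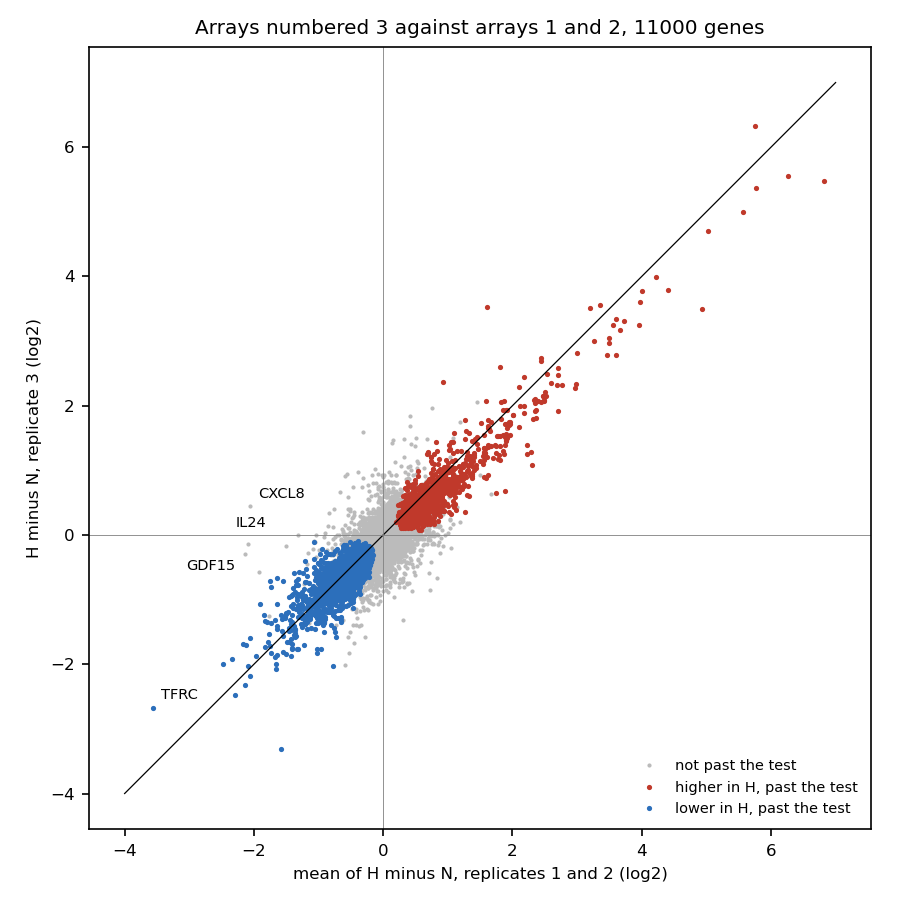
Log2 difference of H minus N in replicate 3 (vertical axis) against the mean difference of replicates 1 and 2 (horizontal axis), 1 point for each of 11000 genes, with genes past the test in red (higher in H) or blue (lower in H) and a line of equality. Points past the test, which included replicate 3, scatter about the line. CXCL8, IL24 and GDF15, none past the test, lie well off it. Their mean differences over replicates 1 and 2 were -2.07 to -2.14, and their differences in replicate 3 were -0.29 to 0.45. The means rest on N replicate 2, where these genes were at 12.17, 7.15 and 9.0, against 6.98, 4.23 and 5.56 on N replicate 1.

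The 15 largest rises joined known hypoxia genes to several with little known function. TMEM45A, which encodes a multi-pass transmembrane protein, was at 4.62, 4.50 and 5.79 on the 3 N arrays and at 11.43, 11.34 and 11.26 on the 3 H arrays. It rose 82.9-fold (log2 change 6.37, standard error 0.34, limma adjusted p = 0.000643), the largest change of any gene tested. Signals in N were spread over more than 1 log2 unit, with replicate 3 highest, and those in H lay within 0.2.

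MIR210HG, the host transcript of the hypoxia microRNA miR-210, stood at 3.36, 2.32 and 2.66 in N and at 9.32, 8.88 and 8.21 in H (log2 change 6.02, adjusted p = 0.000865 in limma). Only N replicate 1 was above the presence threshold and all H arrays were far above it, so the size of the rise is set in part against background. DEPP1, a gene linked to autophagy, showed the same pattern, with 4.05, 2.80 and 2.80 in N against 9.57, 8.79 and 9.13 in H, and SPAG4, a sperm-associated antigen gene, went from 6.48, 5.62 and 6.31 to 11.82, 11.82 and 11.68. ALDOC, the aldolase isoform typical of brain, rose from 6.45, 6.04 and 6.75 to 12.03, 11.60 and 11.75, by 41.6-fold. ANGPTL4, a secreted inhibitor of lipoprotein lipase, reached 10.94, 10.52 and 10.78 from 5.66, 5.76 and 6.08.

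LOC154761, a gene with only a locus name, ANKRD37, an ankyrin repeat gene, and UCN2, a stress peptide of the corticotropin-releasing factor family, followed with log2 changes of 4.46, 4.20 and 4.14. UCN2 was uniform within each group, at 3.94, 3.87 and 4.07 in N and 8.05, 8.20 and 8.06 in H. Its gene (chromosome 3, 48561718 to 48563781 in GRCh38.p14) overlaps that of PFKFB4 (48517684 to 48563136), itself among the 15, and probe set signals do not show which transcript was read. EGLN3, an oxygen-sensing prolyl hydroxylase, was under the presence threshold on all N arrays and at 7.40, 6.68 and 6.68 in H, at least 13.7-fold higher when the N level is set at the threshold. CFAP96, named for cilia and flagella, was at least 7.90-fold higher on the same footing. ADM, the vasodilator peptide adrenomedullin, NDNF, a secreted neurotrophic factor, LOX, which cross-links collagen, and PFKFB4, which makes an activator of glycolysis, rose by 3.85, 3.59, 3.51 and 3.50 log2 units. All 15 were called with arrays 1 and 2 only and in each of the 6 fits that left out 1 array. These 15 genes had 7 further tested probe sets, and all 7 rose.

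**Figure D2:**
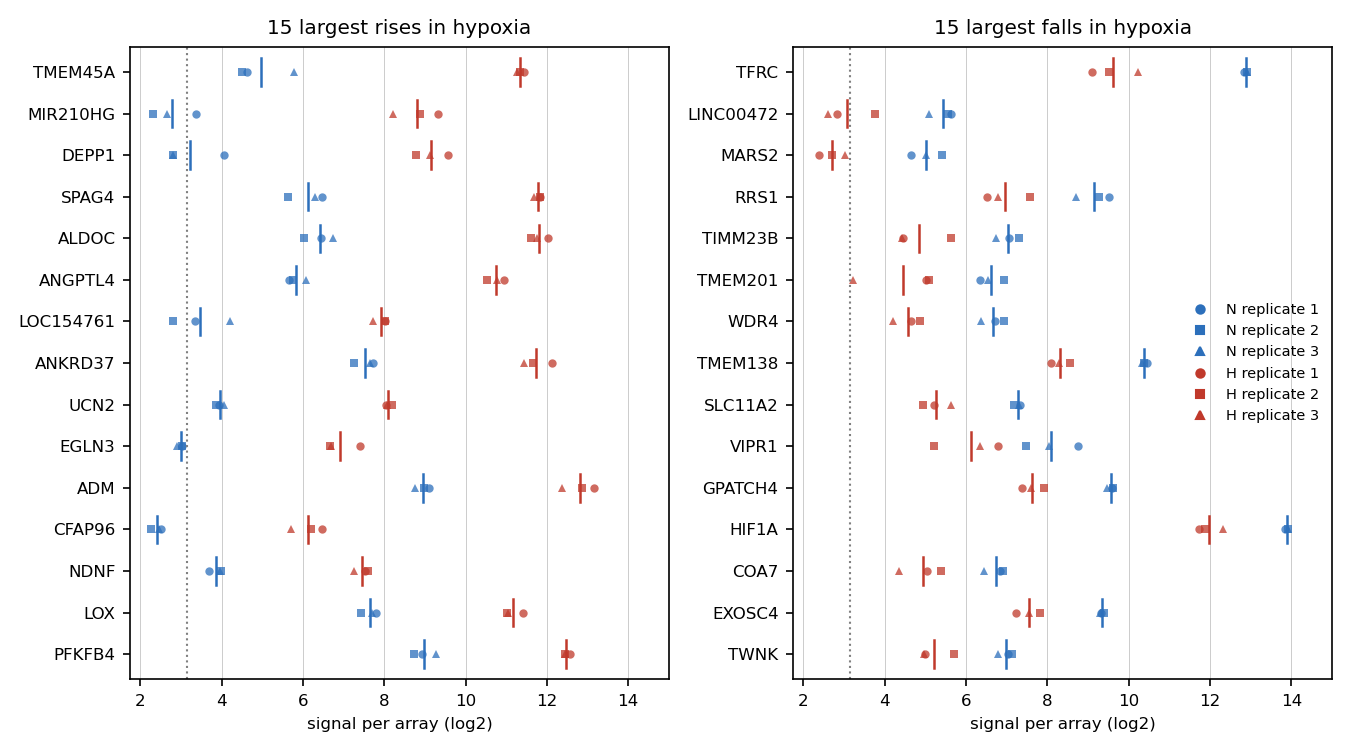
Log2 signal on each array (horizontal axes) for the 15 genes with the largest rises (left) and the 15 with the largest falls (right), with N arrays in blue, H arrays in red, a symbol for each replicate, a bar at each group's mean and a dotted line at the presence threshold of 3.14. In all 30 genes the N and H arrays do not overlap, which the choice of genes required, and the gaps on the left run from 3.50 to 6.37 log2 units against -1.77 to -3.27 on the right.

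Promoter sequences show which of the largest rises carry the ACGTG core next to an annotated start. Of the 15, 12 had an entry among RefSeq promoters of build GRCh38.p14, each with 250 bases before the annotated start and 50 after it. The 250 bases before the start of the 4 largest rises whose upstream bases hold ACGTG are given below 5′ to 3′ on the gene's strand, with ACGTG or its reverse complement CACGT in capitals.
MIR210HG (chr11:568458-568707, minus strand): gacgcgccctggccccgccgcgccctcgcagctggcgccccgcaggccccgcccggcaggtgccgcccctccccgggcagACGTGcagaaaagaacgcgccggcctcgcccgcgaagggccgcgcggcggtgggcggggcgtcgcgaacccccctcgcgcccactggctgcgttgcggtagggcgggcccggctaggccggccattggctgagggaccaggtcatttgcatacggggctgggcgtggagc
ALDOC (chr17:28576896-28577145, minus strand): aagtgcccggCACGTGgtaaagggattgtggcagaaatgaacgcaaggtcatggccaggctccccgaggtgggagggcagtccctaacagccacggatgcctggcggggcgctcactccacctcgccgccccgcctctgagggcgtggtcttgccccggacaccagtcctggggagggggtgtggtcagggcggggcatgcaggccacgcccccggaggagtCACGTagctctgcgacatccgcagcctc
ANGPTL4 (chr19:8363905-8364154, plus strand): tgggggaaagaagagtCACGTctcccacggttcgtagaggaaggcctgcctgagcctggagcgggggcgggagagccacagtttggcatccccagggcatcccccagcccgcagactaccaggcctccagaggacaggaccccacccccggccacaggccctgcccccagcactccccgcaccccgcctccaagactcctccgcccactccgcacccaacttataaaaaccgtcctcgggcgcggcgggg
ANKRD37 (chr4:185396591-185396840, plus strand): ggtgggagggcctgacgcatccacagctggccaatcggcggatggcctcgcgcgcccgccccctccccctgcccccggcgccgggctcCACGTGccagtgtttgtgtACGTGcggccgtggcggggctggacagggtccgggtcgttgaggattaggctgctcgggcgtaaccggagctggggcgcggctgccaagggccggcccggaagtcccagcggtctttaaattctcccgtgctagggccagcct
Counted from the annotated start, MIR210HG held the core once, with its first base at -170, and ANGPTL4 once, at -234. ALDOC held it 3 times and ANKRD37 3 times. In both, a pair of matches overlapped as the palindrome CACGTG, from -240 in ALDOC and from -162 in ANKRD37. LOX held the core 4 times and CFAP96 once, and neither is printed. In the 300 bases of TMEM45A, DEPP1, UCN2, EGLN3, ADM and PFKFB4 there was no ACGTG on either strand. Of these, ADM and PFKFB4 each held the other core, GCGTG, once. The upstream bases read for CFAP96 (185426004 to 185426253) lay inside its gene, which spans 185408434 to 185449826. Those read for PFKFB4 (48556804 to 48557053) also lay inside its gene (48517684 to 48563136). For both, the start read was thus not the outermost one.

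Across the genes with a promoter entry, ACGTG on either strand was found in 23 of 42 (54.8%) among the 50 largest rises, in 11 of 41 (26.8%) among the 50 largest falls, in 27.5% of the 9089 tested genes with an entry and in 21.6% of all 27305 promoters. Over all called genes the shares were 33.7% of 888 rises and 28.5% of 1896 falls. The other core, GCGTG, went the other way. It was in 45.2% of the promoters of the 50 largest rises, 58.5% of those of the 50 largest falls, 51.3% of those of tested genes and 36.3% of all promoters. Where a symbol had several entries the first was read. These shares describe letters in a short window and say nothing of binding.

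Among the HIF subunits and oxygen sensors, the prolyl hydroxylases EGLN1 and EGLN3 rose while HIF1A fell. HIF1A, the oxygen-regulated subunit of HIF-1, was at 13.84, 13.91 and 13.91 in N and at 11.74, 11.88 and 12.32 in H (log2 change -1.90 with all arrays and -2.06 with arrays 1 and 2, limma adjusted p = 0.00175 and 0.0266). N arrays agreed within 0.1, and H replicate 3 fell least. EGLN1, the main HIF prolyl hydroxylase, rose 3.69-fold, from 10.39, 10.64 and 10.63 to 12.45, 12.50 and 12.35, and its 2 other probe sets rose by 1.76 and 2.03. CITED2, which competes with HIF for a coactivator, rose by 0.88 log2 units, a call lost without N replicate 1 or 3 or H replicate 1 or 2 (adjusted p up to 0.0653). VHL fell by 0.52, a call lost without N replicate 2 or 3 or H replicate 1 or 2 (adjusted p up to 0.0925). EPAS1, which encodes HIF-2α, and ARNT had log2 changes of 0.15 and 0.07 and did not pass the test, but 1 of the 4 other ARNT probe sets rose by 1.31 (adjusted p = 0.00461 in limma). In all, 3 of the 10 members tested were higher and 2 lower, against 9.62% and 20.5% of all genes, and HIF3A and EGLN2 were under the presence threshold.

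Genes of glucose uptake and glycolysis rose at every step from the transporter to lactate but those of GAPDH and PKM. Of 22 members, all tested, 17 were higher and 0 lower with 6 arrays, against 9.62% and 20.5% of all genes, and with arrays 1 and 2 the numbers were 17 and 0, against 4.62% and 5.93%. The median log2 change of the list was 0.66. In 16 of the 17, the call stood in each fit without 1 array. The exception was ENO1, whose call was lost without any 1 of the N arrays or H replicate 1 (adjusted p up to 0.0618).

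The rises differed widely in size between isoforms of the same step. SLC2A3, a glucose transporter, rose 6.19-fold (7.96, 8.16 and 8.36 in N, 11.18, 10.37 and 10.83 in H), and SLC2A1, the transporter of most cells, 2.44-fold, while the other SLC2A1 probe set rose by 2.08 log2 units. HK2, the inducible hexokinase, went up 5.28-fold, from 8.05, 8.23 and 8.10 to 10.90, 10.43 and 10.25, and HK1, the constitutive one, 1.68-fold. Of the enzymes that set fructose 2,6-bisphosphate, PFKFB4 rose 11.3-fold and PFKFB3 4.61-fold, whereas PFKFB2 had a log2 change of 0.07 that did not pass the test. Phosphofructokinase genes PFKL and PFKP rose by 1.15 and 0.54 log2 units and PFKM stood at -0.12, not past the test. ALDOC rose 41.6-fold and ALDOA 1.55-fold. ENO2, known as the neuronal enolase, increased 5.11-fold, with 9.84, 9.79 and 10.03 in N and 12.36, 12.24 and 12.12 in H, and ENO1, the widely used one, 1.26-fold.

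Some enzymes near the top of the signal range moved little. LDHA, which turns pyruvate into lactate, had 15.25, 15.27 and 15.28 in N and 15.73, 15.72 and 15.66 in H, a rise of 1.35-fold with an adjusted p of 0.00439 in limma, and TPI1 and PGAM1 rose 1.45-fold and 1.46-fold. GAPDH, PKM and LDHB had log2 changes of 0.12, 0.14 and -0.14 and did not pass the test. For PGK1 the probe set with the highest mean rose by 0.97 log2 units, 4 of its 5 others rose as well, and all 5 lay between 1.27 and 3.71.

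**Figure D3:**
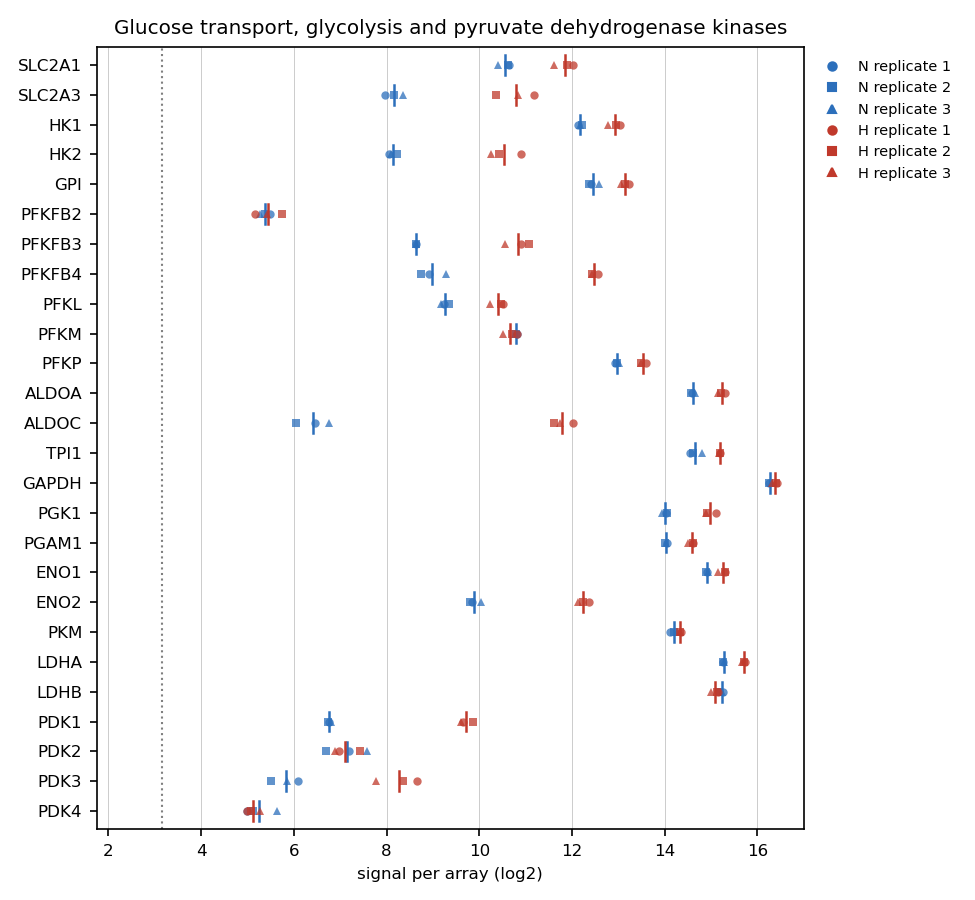
Log2 signal on each array (horizontal axis) for the genes of glucose transport and glycolysis in pathway order and for the 4 pyruvate dehydrogenase kinases, with N arrays in blue, H arrays in red, a symbol for each replicate, a bar at each group's mean and a dotted line at the presence threshold. ALDOC has the widest gap, 5.38 log2 units, and PFKFB2, PFKM, GAPDH, PKM and LDHB, none past the test, the narrowest among the genes before the kinases.

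PDK1 and PDK3, kinases that switch off pyruvate dehydrogenase and so keep pyruvate from being burned, rose, while 1 of 20 respiratory chain genes changed. Of 17 genes of pyruvate entry and mitochondrial adaptation, 5 were higher and 2 lower (1 lower with the replicate number as a block, 0 without N replicate 2 or 3), against 9.62% and 20.5% of all genes, with a median of -0.04. The falls numbered 1 without any 1 of N replicate 1, H replicate 1 or H replicate 3. The kinases rose 7.69-fold and 5.43-fold. PDK1 was at 6.76, 6.75 and 6.79 in N and at 9.65, 9.86 and 9.61 in H, and PDK3 at 6.10, 5.51 and 5.85 and 8.65, 8.36 and 7.78. AK4, a mitochondrial adenylate kinase, FAM162A, a mitochondrial protein gene, and LONP1, a mitochondrial protease, increased by 2.36, 2.27 and 0.66 log2 units. PDK2 and PDK4 had -0.05 and -0.13 and were not called. Among 20 genes of the respiratory chain complexes, 0 rose and 1 fell (2 without H replicate 2), fewer than the 9.62% and 20.5% of all genes. The fall was that of NDUFS1 of complex I, by 0.50 in limma (adjusted p = 0.0103). That call was not made with arrays 1 and 2 (adjusted p = 0.0835). The 2 other NDUFS1 probe sets, at -0.26 and 0.02, were not called. All 20 lay between -0.50 and 0.14.

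BNIP3 and BNIP3L, receptors that mark mitochondria for removal, rose together. BNIP3 was at 12.26, 12.23 and 11.93 in N and 14.58, 14.81 and 14.62 in H (5.78-fold), and BNIP3L at 11.06, 10.85 and 10.97 and 13.43, 13.18 and 13.01 (4.75-fold). With DEPP1 they were the 3 of 12 mitophagy and autophagy genes that rose, against 9.62% of all genes, 0 fell, and the median of the list was 0.19. The autophagy genes ULK1, MAP1LC3B, SQSTM1 and BECN1 were among the 9 not past the test, at 0.38, 0.20, -0.22 and -0.04. CA12, a carbonic anhydrase of the cell surface, rose 3.30-fold. In the list of lactate and pH genes it was the 1 member called of 6 tested, against 9.62% of all genes higher and 20.5% lower. The rises numbered 2 with the replicate number as a block, in the fit of all 18 arrays, and without N replicate 2, N replicate 3 or H replicate 2, and 3 after quantile normalization. The lactate transporters SLC16A1 and SLC16A3 and the carbonic anhydrase CA9 have no probe set named in the gene table used here and were not analysed.

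Enzymes that modify and cross-link collagen had the highest median of the 26 lists, 1.32. Of 11 members tested, 8 were higher and 0 lower with 6 arrays, all 8 in each fit without 1 array, against 9.62% and 20.5% of all genes. The rises numbered 9 with arrays 1 and 2, against 4.62%. P4HA1, the catalytic subunit of collagen prolyl hydroxylase, went from 8.23, 8.15 and 8.47 to 11.73, 11.65 and 11.44, and P4HA2 from 10.43, 10.33 and 10.78 to 12.22, 12.12 and 12.02, rises of 10.0-fold and 3.04-fold. P4HB, the partner subunit, had a log2 change of 0.32 that did not pass the test, while its 2 other probe sets rose by 0.50 and 0.68 (adjusted p = 0.0155 and 0.00277 in limma). The lysyl hydroxylase genes PLOD2 and PLOD1 rose 5.92-fold and 2.44-fold, and PLOD3 was at -0.16, not past the test. LOX stood at 7.79, 7.44 and 7.71 in N and 11.41, 11.01 and 11.04 in H, an 11.4-fold rise, and of its relatives LOXL4 and LOXL2 rose 4.67-fold and 1.59-fold while LOXL1 was at -0.01. ERO1A, which reoxidizes protein disulfide isomerase in the endoplasmic reticulum, rose 2.50-fold.

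With all arrays, most members of the list of endoplasmic reticulum chaperones rose as well, by less. The list also holds the transcription factor XBP1 and the degradation factors EDEM1, HERPUD1 and SEL1L. Of 13 members tested, 8 were higher and 0 lower (median log2 change 0.54), against 9.62% and 20.5% of all genes. EDEM1, HERPUD1 and SEL1L were among the rises. The chaperone genes CALR, CANX, DNAJB9 and SDF2L1 were not called through the probe sets that stood for them, while other probe sets of CALR and CANX rose. The rises numbered 4 with arrays 1 and 2, against 4.62% of all genes, 5 without N replicate 1 and 5 without N replicate 2, and 5 of the 8 calls held in every fit without 1 array. PDIA4 and HSP90B1, a disulfide isomerase and the chaperone GRP94, rose 2.11-fold and 2.0-fold. HSPA5, the chaperone BiP, was at 13.99, 14.02 and 13.95 in N and 14.71, 14.48 and 14.38 in H, a rise of 1.45-fold with an adjusted p of 0.0129 in limma and 0.0594 with arrays 1 and 2. In the integrated stress response 1 of 14 genes rose and 1 fell, against 9.62% and 20.5% of all genes. The fall was that of SLC7A11, by 0.76 log2 units, a call lost without any 1 of 5 arrays, all but H replicate 1. Its 2 other probe sets fell by 0.66 and 2.56 and were called with all arrays (limma adjusted p = 0.0417 and 0.00205). The rise was that of DDIT4, also called REDD1, an inhibitor of mTORC1, at 12.19, 12.40 and 12.22 in N and 14.09, 13.84 and 13.97 in H (3.25-fold), and it was not called in the fit of all 18 arrays (adjusted p = 0.329 in limma). ATF4, the central transcription factor of this response, ATF3 and TRIB3 had log2 changes of -0.13, -0.06 and -0.12, not past the test. Their replicates disagreed, with H above N in replicate 1 and below it in replicates 2 and 3. ATF4 was at 12.87, 12.59 and 12.77 in N and 13.07, 12.14 and 12.62 in H. ATF3 was at 6.64, 7.40 and 6.91 and 7.43, 6.56 and 6.78, and TRIB3 at 11.07, 11.57 and 11.22 and 11.71, 10.69 and 11.10.

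**Figure D4:**
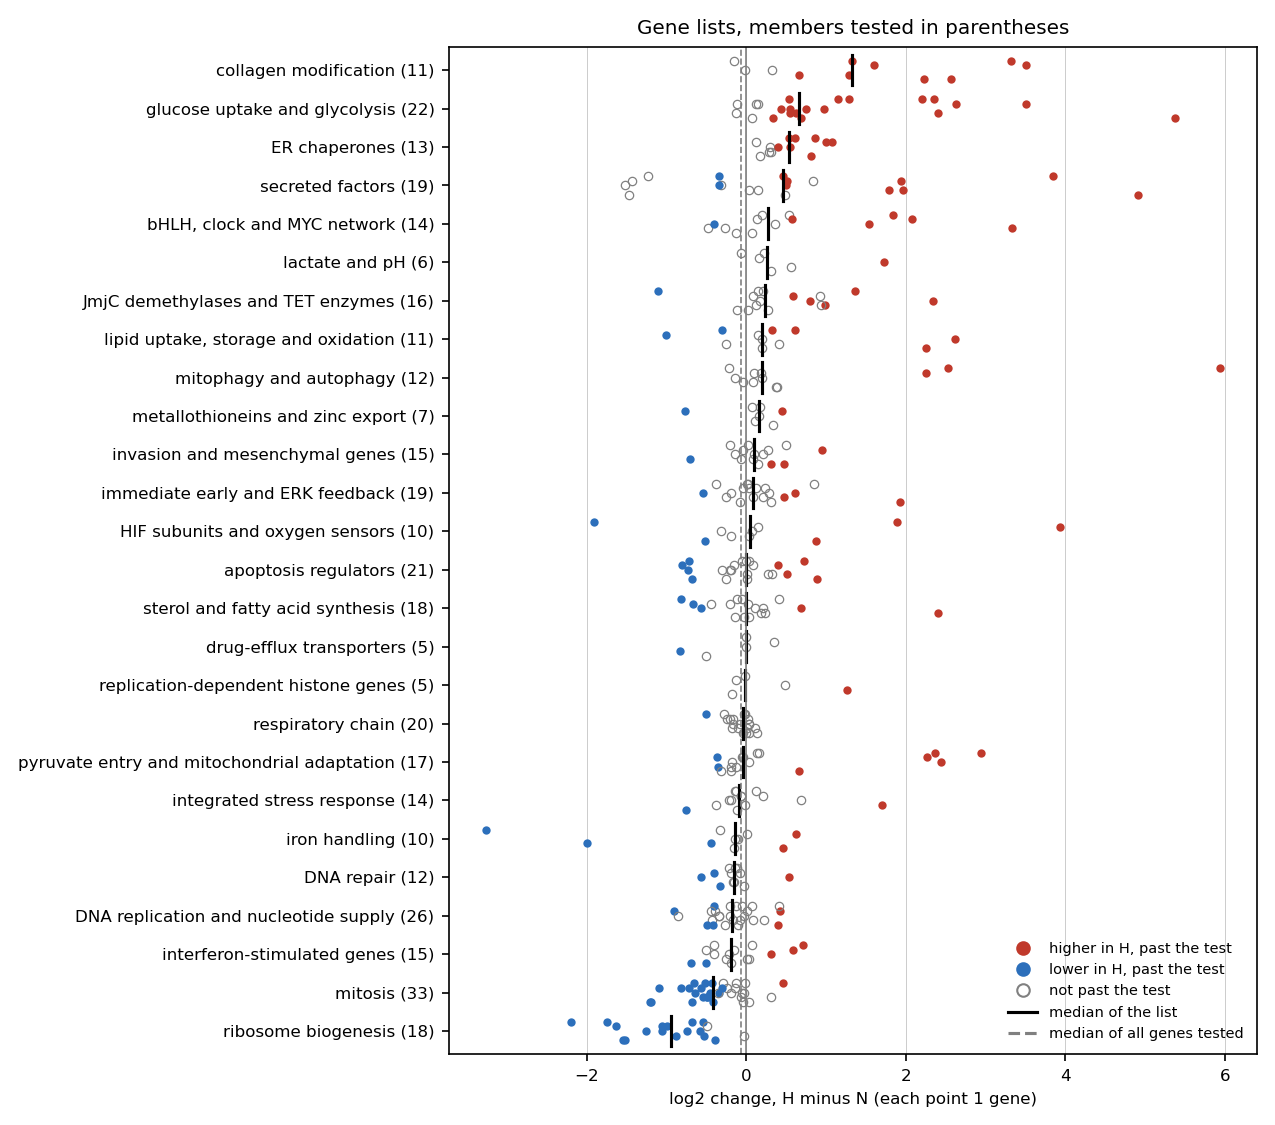
Log2 change of H minus N (horizontal axis) for each tested member of 26 gene lists, ordered by the median of the list (black bar), with members past the test filled in red (higher) or blue (lower), others open, and a dashed line at the median of all genes tested, -0.06. Collagen modification, glycolysis and endoplasmic reticulum chaperones lie at the top with medians of 1.32, 0.66 and 0.54, and mitosis and ribosome biogenesis at the bottom with -0.42 and -0.94.

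Among secreted factors of hypoxia and inflammation, more rose than fell. Of 19 tested, 8 were higher and 2 lower, against 9.62% and 20.5% of all genes, with a median of 0.46. Without N replicate 1 or N replicate 2, 5 were higher, and 0 were lower without N replicate 1 or 3 or H replicate 2. The falls were those of CCN1, a matricellular protein, and PDGFA, a growth factor chain, by 0.34 and 0.34 log2 units, and were not called with arrays 1 and 2 (limma adjusted p = 0.0681 and 0.153). Besides ANGPTL4 and ADM, IGFBP3, a binding protein of insulin-like growth factors, rose 3.89-fold (11.31, 11.34 and 11.37 in N, 13.50, 13.36 and 13.04 in H), STC1, a calcium-regulating glycoprotein hormone, 3.84-fold (10.91, 11.00 and 10.50 and 12.95, 12.71 and 12.57), and TNFSF10, the death ligand TRAIL, 3.46-fold (6.89, 7.10 and 6.64 and 9.08, 8.72 and 8.20). VEGFA, the main angiogenic factor, was already at 13.20, 13.28 and 13.21 in N and reached 13.90, 13.66 and 13.52 in H, a rise of 1.38-fold. Its call was lost without any 1 of the N arrays or H replicate 2 (adjusted p up to 0.0854), and its other 3 probe sets rose by 0.54 to 0.70 log2 units, all called. PGF, a relative of VEGFA, was not called through the probe set that stood for it (0.14), while another probe set rose by 3.22 (adjusted p = 0.000251 in limma).

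A group of cytokine genes stood apart on a single N array. CXCL8, a neutrophil chemokine, was at 6.98, 12.17 and 7.22 in N and at 7.41, 7.60 and 7.67 in H. IL24 was at 4.23, 7.15 and 3.98 and 3.59, 3.60 and 3.85, IL6 at 6.78, 9.09 and 6.89 and 6.13, 5.90 and 6.32, and GDF15, a stress-induced member of the TGF-β family, at 5.56, 9.0 and 5.63 and 5.41, 4.86 and 5.34. In each of the 4 the second N array was higher than both others by more than 2 log2 units. With all arrays their log2 changes were -1.23, -1.44, -1.47 and -1.53, and limma called none (adjusted p = 0.555, 0.255, 0.141 and 0.280). Without N replicate 2 they were 0.46, -0.42, -0.72 and -0.39, and IL6 was called lower (adjusted p = 0.0372). Over all 11000 genes, 12 had N replicate 2 more than 1 log2 unit from both other N arrays, 10 of them above, against 4 each for N replicates 1 and 3. In H the numbers were 12, 16 and 22 for replicates 1, 2 and 3.

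Of the oxygen-dependent JmjC histone demethylases and TET enzymes, 5 of 16 tested rose and 1 fell (median 0.24), against 9.62% and 20.5% of all genes. KDM3A, which demethylates histone H3 lysine 9, went from 8.94, 8.67 and 8.93 to 11.40, 11.18 and 11.01 (5.08-fold) and KDM4B from 8.86, 8.90 and 8.90 to 10.43, 10.14 and 10.16 (2.57-fold). KDM5C, KDM5B and KDM2B rose by 0.99, 0.79 and 0.58 log2 units. All 5 were called with arrays 1 and 2 and in every fit without 1 array. The other KDM5C probe set, at 0.32, was not called. TET3 fell by 1.11, a call lost without N replicate 1, N replicate 2 or H replicate 1 (adjusted p up to 0.0700).

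In the list of bHLH, clock and MYC network genes, 5 of 14 rose and 1 fell (median 0.28), against 9.62% and 20.5% of all genes. In the fit of all 18 arrays 2 rose, and without N replicate 2 the falls numbered 2. MXI1, an antagonist of MYC that pairs with MAX, rose most, from 9.15, 8.73 and 9.45 to 12.69, 12.39 and 12.23 (10.0-fold). The transcriptional repressors BHLHE40 and BHLHE41 increased 3.58-fold and 4.23-fold, and ID1, an inhibitor of bHLH factors, 2.91-fold. MAX fell by 0.41 log2 units (adjusted p = 0.00819 in limma with all arrays and 0.0573 with arrays 1 and 2), and MYC itself was at 11.33, 11.76 and 11.17 in N and 11.83, 11.47 and 11.36 in H, with a log2 change of 0.13 that did not pass the test. Of 19 immediate early and ERK feedback genes, 3 rose and 1 fell, against 9.62% and 20.5% of all genes. The rises numbered 5 with the replicate number as a block, 1 without N replicate 1 or N replicate 3 and 2 without H replicate 1. They numbered 0 with arrays 1 and 2, against 4.62% of all genes. DUSP1, a phosphatase that inactivates MAP kinases, rose 3.80-fold (8.96, 9.85 and 8.76 in N, 11.52, 11.14 and 10.70 in H), with an adjusted p of 0.0116 in limma with all arrays and 0.0668 with arrays 1 and 2.

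The falls were led by TFRC, the transferrin receptor that brings iron into the cell. Its signal was 12.84, 12.91 and 12.90 on the N arrays, within 0.1 of each other, and 9.10, 9.52 and 10.23 on the H arrays, with replicate 3 highest. It fell 9.62-fold (log2 change -3.27 with all arrays and -3.56 with arrays 1 and 2, limma adjusted p = 0.00184 and 0.0306). Of its other 3 probe sets 2 fell, the lower of them by 3.60, and the third was at -0.02. SLC11A2, the iron transporter DMT1, fell 4.01-fold, from 7.34, 7.17 and 7.30 to 5.22, 4.95 and 5.62, and FBXL5, the iron-sensing ligase subunit, by 0.44 log2 units. STEAP3 and CYBRD1, both metalloreductases, rose by 0.63 and 0.46. The call of STEAP3 was lost without N replicate 2 or 3 (adjusted p up to 0.0542). In all, 2 of 10 iron genes tested were higher and 3 lower with all arrays, and 0 and 2 with arrays 1 and 2. Over all genes the shares were 9.62% and 20.5% with all arrays and 4.62% and 5.93% with arrays 1 and 2. STEAP3, CYBRD1 and FBXL5 did not pass the test with arrays 1 and 2. The other probe sets of CYBRD1 and FBXL5, at 0.07 and -0.21, were not called with all arrays.

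TFRC, SLC11A2 and HIF1A were among the 15 largest falls, and the other 12 had varied known roles. MARS2, the mitochondrial methionyl-tRNA synthetase, was at 4.66, 5.40 and 5.01 in N and under the presence threshold on all H arrays, at least 3.68-fold lower. TWNK, the mitochondrial DNA helicase, COA7, an assembly factor of cytochrome c oxidase, and TIMM23B, a relative of a mitochondrial import subunit, fell by 1.77, 1.80 and 2.19 log2 units. The value of TIMM23B is uncertain, since a near-identical copy of it exists. WDR4, a subunit of a tRNA methyltransferase, EXOSC4, a subunit of the RNA exosome, and RRS1, a ribosome assembly factor, fell by 2.10, 1.79 and 2.20. TMEM138, a gene of ciliary transport, GPATCH4, a nucleolar protein gene, and the long noncoding RNA LINC00472 fell by 2.07, 1.94 and 2.35. VIPR1, a neuropeptide receptor, and TMEM201, of the inner nuclear membrane, fell by 1.98 and 2.16. VIPR1 lost its call without any array but H replicate 1 (adjusted p up to 0.0966), and TMEM201 without any 1 of the N arrays or H replicate 1 (up to 0.101). The other 13 falls were called in every such fit. Further probe sets of COA7, EXOSC4 and GPATCH4 were all called lower as well. Those of LINC00472 and TMEM201, at -0.66 and -0.50, were not called, nor was 1 of the 2 of SLC11A2, at -0.12. With arrays 1 and 2, 10 of the 15 were called, and LINC00472, RRS1, TIMM23B, VIPR1 and TWNK were not, with adjusted p from 0.0519 to 0.172.

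Genes of ribosome biogenesis fell nearly throughout. Of 18 tested from a list of 22, 16 were lower and 0 higher, against 20.5% and 9.62% of all genes, and the median was -0.94, the lowest of the 26 lists. All 18 had a log2 change below 0. The numbers were 9 lower and 0 higher with arrays 1 and 2, against 5.93% and 4.62% of all genes, and the median was -0.94 again. In every fit without 1 array 12 of the 16 kept their call. NOP2, an rRNA methyltransferase, stood at 9.17, 9.23 and 8.95 in N and 7.23, 7.67 and 7.23 in H (3.35-fold lower, adjusted p = 0.00187 in limma). NOP16 and BYSL, assembly factors of the large and small subunit, fell from 11.54, 11.60 and 11.40 to 9.91, 10.14 and 9.59 and from 10.63, 10.73 and 10.54 to 9.17, 9.37 and 8.79. Both largest subunits of RNA polymerase I, POLR1A and POLR1B, fell 2.09-fold and 2.08-fold (POLR1A not called with arrays 1 and 2, adjusted p = 0.0891 in limma), and DDX21, a nucleolar helicase, 2.39-fold. FBL, the rRNA methyltransferase fibrillarin, was at -0.03 and UTP20 at -0.49, neither past the test.

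More than 1 in 2 mitotic genes fell, by smaller amounts. Of 33 tested, 19 were lower and 1 higher (2 with the replicate number as a block), against 20.5% and 9.62% of all genes, with a median of -0.42. With arrays 1 and 2, 9 were lower, against 5.93%, and 0 higher, and 12 of the 19 kept their call in every fit without 1 array. PLK1, a mitotic kinase, was at 10.46, 10.49 and 10.42 in N and 8.89, 9.39 and 9.46 in H, CDC20, the activator of the anaphase-promoting complex, at 12.13, 12.35 and 12.14 and 10.88, 11.11 and 11.05, and CCNB1, cyclin B1, at 13.31, 13.30 and 13.19 and 12.02, 12.31 and 12.21. They fell 2.32-fold, 2.29-fold and 2.13-fold. The member that rose was HMMR, a hyaluronan-binding spindle protein, by 0.46 log2 units. Its call was lost in all fits without 1 array but that without H replicate 3 (adjusted p up to 0.114), and its other probe set, at 0.32, was not called. CDK1, TOP2A and CCNA2 had log2 changes of 0.30, -0.04 and -0.12 and did not pass the test, but the other CCNA2 probe set fell by 0.54 (adjusted p = 0.00896 in limma). Of 26 genes of DNA replication and nucleotide supply, 4 fell and 2 rose (median -0.18), which was no more often than the 20.5% and 9.62% of all genes, and 0 of these 6 calls stood in every fit without 1 array. The falls numbered 0 without N replicate 1, N replicate 2 or H replicate 1, 1 without N replicate 3 or H replicate 3 and 10 without H replicate 2, and the rises 0 without N replicate 2 or 3 or H replicate 1 or 2 and 1 without N replicate 1.

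**Figure D5:**
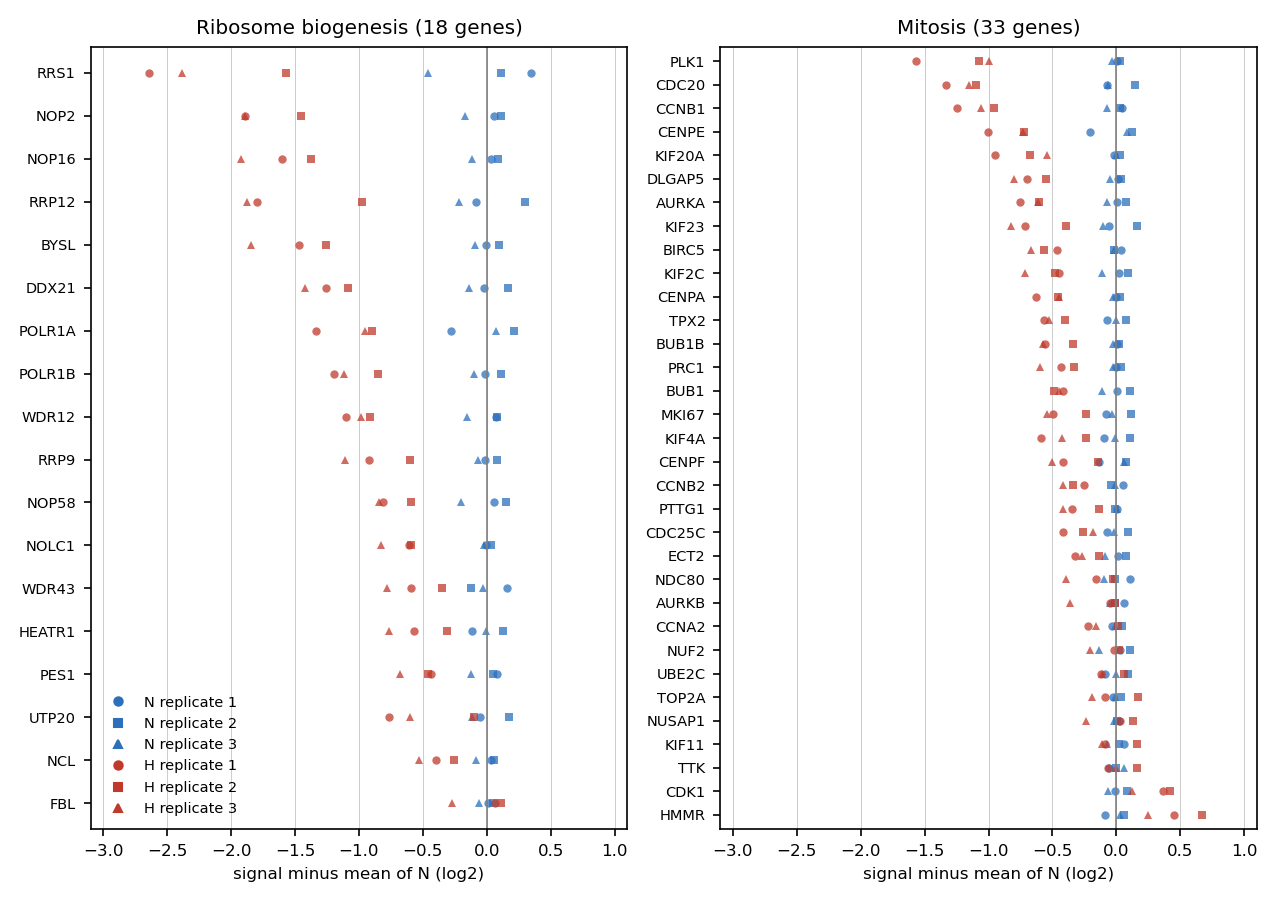
Log2 signal of each array minus the mean of the N arrays (horizontal axes) for the genes of ribosome biogenesis (left) and mitosis (right), ordered by log2 change, with N arrays in blue, H arrays in red and a symbol for each replicate. On the left the H arrays lie left of all N arrays in 16 of the 18 genes. Over all genes tested, N and H arrays did not overlap, in either direction, in 5311 of 11000, among them every called gene. On the right the changes run from -1.21 in PLK1 to 0.46 in HMMR.

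INSIG2, which retains the sterol sensor in the endoplasmic reticulum, rose 5.30-fold, from 8.80, 8.71 and 8.89 to 11.27, 11.23 and 11.11. Of the 18 sterol and fatty acid synthesis genes tested, 2 rose and 3 fell, close to the 9.62% and 20.5% of all genes. The falls numbered 0 with arrays 1 and 2, against 5.93% of all genes, 0 without N replicate 1, and 1 without N replicate 3 or H replicate 1. HILPDA, a lipid droplet protein that inhibits lipolysis, and VLDLR, a lipoprotein receptor, rose 6.16-fold and 4.78-fold, with HILPDA at 8.38, 8.33 and 8.19 in N and 11.33, 10.93 and 10.52 in H. CPT1A, which admits fatty acids to the mitochondrion for oxidation, fell 2.01-fold, from 9.06, 9.16 and 9.36 to 8.06, 8.17 and 8.33. In that list of lipid uptake, storage and oxidation, 4 of 11 were higher and 2 lower, against 9.62% and 20.5% of all genes (1 lower with the replicate number as a block). Without any 1 of the N arrays or H replicate 1, 2 were higher, and without N replicate 1 or 3 or H replicate 1 or 3, 1 was lower.

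Some genes crossed the presence threshold altogether. Of the 11000 genes, 29 were under it on all N arrays and above it on all H arrays, 27 of them called, and 12 went the other way, 11 of them called. Over all genes 9.62% were called higher and 20.5% lower. The genes that crossed were tested only through the group where they were present and were picked by that gap. Their high share of calls follows in part from this choice. After EGLN3 and CFAP96, the largest bounds were those of SLC27A3, a fatty acid transport protein gene, at least 6.99-fold higher, RASSF2, a Ras-association domain gene, at least 5.85-fold, and RORA, a nuclear receptor of the clock, at least 5.43-fold. RASSF2 was at 5.60, 5.69 and 5.79 in H. RORA was at the array floor of 2.23 on all N arrays and at 5.95, 5.52 and 5.29 in H.

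A few genes had also been followed by qRT-PCR, a choice made on these samples. The study reports that qRT-PCR bore out the changes of TMEM45A, STC1, CALHM6 (there FAM26F) and GDF15. For S100A10 it reports no change by qRT-PCR. Except for TMEM45A, it does not state which conditions were compared. CALHM6, a calcium homeostasis modulator family gene, rose 5.15-fold (6.14, 6.01 and 6.29 in N, 8.57, 8.52 and 8.44 in H), and STC1 rose as given above. S100A10, a calcium-binding protein of the annexin A2 complex, was at 14.49, 14.48 and 14.48 in N and 14.85, 14.72 and 14.71 in H. Its rise of 1.21-fold was called with all arrays (adjusted p = 0.0268 in limma), but not with arrays 1 and 2 (0.0999), not with the replicate number as a block (0.0535) and not without any 1 of the N arrays or H replicate 1 (up to 0.0779). GDF15, as given above, was not called.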

How the data were processed

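Affymetrix HG-U133 Plus 2.0 arrays of MDA-MB-231 cells were compared, 3 at 20% oxygen (N) and 3 at 1% oxygen (H), from what the study describes as independent experiments. The authors normalized them with GC-RMA and deposited log2 values. The version is not given in the sources used here. Methods name AffyProbeMiner chip definitions, while the probe set names are the standard ones. No further normalization was applied. Of the tested probe sets, 118 held 1 value on all 6 arrays.

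After 62 control probe sets were set aside, a probe set was tested when present (linear signal over 8.84, log2 3.14, the study's threshold) on at least 2 arrays of N or H. The fit used limma 3.58.1 in R 4.3.3, with 4 residual and 1.89 prior degrees of freedom, two-sided, Benjamini-Hochberg adjustment over 23352 probe sets and a threshold of 0.05, and was tested on simulated data. The number of arrays limits the precision. Names came from the platform's gene table: 41091 probe sets had 1 symbol, 1801 had several and 11721 had none here and were not named. Promoters and coordinates are RefSeq's (GRCh38.p14). A fold against a group under the threshold is a bound, computed against the threshold.

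Same-numbered N and H arrays deviated together from their group means (correlations 0.168, 0.166 and 0.292 for numbers 1, 2 and 3, against at most 0.024 for other pairs). These correlations run across probe sets, and deviations from a group mean depend on each other, so they do not settle whether the samples are paired. The main fit did not use the replicate number. With the number as a block, 2265 probe sets were higher and 4112 lower, against 2201 and 4176 in the main fit. Any pairing of N with H arrays rests on the replicate numbers in the titles. The members, the 26 gene lists and the tests were chosen with earlier results of these data known. The genes named were, by rule, the 15 largest rises and falls past the test without overlap, list members, genes that crossed the threshold, genes with probe sets called in opposite directions, genes whose replicate 3 departed most, and those measured by qRT-PCR. Alternatives were other array sets (arrays 1 and 2, source names, all 18 arrays), a replicate block, presence filters, quantile normalization, median centring, a trended and robust variance, any probe set of a gene, and each array left out.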

Additional observations from a re-analysis of the deposited data

How the results depend on the processing

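With 6 arrays, 6377 probe sets were called, 2201 higher and 4176 lower. With arrays 1 and 2 of each group, the numbers were 2290, 1086 and 1204, and without a presence filter, over 54613 probe sets, 2352, 867 and 1485. With 1 array left out, they ranged from 3696 to 5858, 1269 to 2150 and 2427 to 4014, lowest in all 3 without N replicate 1. Without N replicate 2, 3876 were called, and without N replicate 3, 4135. Grouping by source name put the third arrays titled as paclitaxel, whose source names give no drug, in place of the third N and H arrays. With that set of arrays, limma called 0, with 2567 at an unadjusted p under 0.05, and 0 members of every list below. Counts for a replicate block (6377), all 18 arrays in 1 fit (5118), presence on all 3 arrays (6394), a doubled presence threshold (6560), quantile normalization (6600), median centring (6805) and a trended and robust variance (6974) stayed within 1.5 times. No probe set called with 6 arrays was called in the opposite direction in any alternative.

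Among the lists, glycolysis rises and collagen modification rises moved by over 1.5 times with the source names alone. For the others named there, with arrays 1 and 2 and then without a presence filter, chaperone rises went from 8 to 4 and 1. In the same order, mitosis falls went from 19 to 9 and 10, and ribosome biogenesis falls from 16 to 9 and 7. With 1 array left out, chaperone rises ranged from 5 to 8, lowest without N replicate 1 or 2, mitosis falls from 13 to 20 and ribosome biogenesis falls from 12 to 17. Of 121 called genes checked one by one, the replicate block lost 1 (S100A10) and quantile normalization 1 (PDGFA). List counts that the block moved by over 1.5 times are given beside those lists, and it moved no other by more. The causes of these changes were not tested.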

Other observations

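Apoptosis regulators moved both ways, with 4 of 21 tested genes higher and 4 lower, against 9.62% and 20.5% of all genes, and a median of 0.00. The share that fell was close to that of all genes. BAK1, a pore-forming effector, fell from 7.88, 7.81 and 7.78 to 7.06, 7.06 and 7.22, BCL2L2, a survival factor, by 0.73 log2 units, and TNFRSF10A, a receptor of TRAIL, by 0.68, with both its other probe sets lower as well. APAF1, the scaffold of the apoptosome, and BID, a BH3-only protein, rose by 0.73 and 0.51. BCL2L11, the BH3-only protein BIM, fell by 0.80, a call lost without any 1 of the N arrays or H replicate 3 (limma adjusted p up to 0.0912), and its 2 other probe sets were not called. MCL1, BCL2L1 and XIAP had log2 changes of 0.27, -0.16 and 0.00, not past the test, but 1 other probe set of BCL2L1 and 1 of XIAP fell, by 0.31 and 0.36 (adjusted p = 0.0264 and 0.0444 in limma). With arrays 1 and 2, 0 of the 21 were higher and 2 lower, against 4.62% and 5.93% of all genes. BCL2L2, APAF1, BID and BCL2L11 did not pass the test with those arrays. Without N replicate 1, 2 were higher.

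Of 5 drug-efflux transporter genes above the presence threshold, 0 were higher and 1 was lower, against 9.62% and 20.5% of all genes. The share that fell was close to that of all genes. ABCC5 fell from 8.47, 8.62 and 8.69 to 7.74, 7.83 and 7.72, while its 2 other probe sets, at -0.62 and -0.14, were not called. ABCB1, the P-glycoprotein gene, was under the threshold. In the list of invasion and mesenchymal genes, ITGA5, the fibronectin receptor subunit, rose from 8.66, 8.69 and 8.96 to 9.86, 9.55 and 9.73 and PLAU, urokinase, fell from 13.01, 12.77 and 13.07 to 12.43, 12.18 and 12.11, and 3 of 15 were higher and 1 lower in all, against 9.62% and 20.5% of all genes. The rises numbered 1 with arrays 1 and 2, against 4.62% of all genes, and 1 without N replicate 1 or 2 or H replicate 1 or 2. PLAU was not called with arrays 1 and 2 (limma adjusted p = 0.0936). Interferon-stimulated genes had 3 of 15 higher and 2 lower (median -0.19), against 9.62% and 20.5% of all genes. With arrays 1 and 2, 0 were higher and 2 lower, against 4.62% and 5.93% of all genes. IRF9, a transcription factor of that pathway, was at 8.67, 8.72 and 8.67 in N and 9.39, 9.20 and 9.25 in H (limma adjusted p = 0.00415 with all arrays and 0.0521 with arrays 1 and 2). With 1 array left out the rises ranged from 1, without N replicate 2 or 3 or H replicate 1 or 2, to 2, and the falls from 0, without any 1 of the N arrays, to 3, without H replicate 2. In DNA repair 1 of 12 tested from a list of 18 rose and 3 fell, close to the 9.62% and 20.5% of all genes. The falls numbered 0 without N replicate 1, 1 without N replicate 2 or 3 or H replicate 1, and 0 with arrays 1 and 2, against 5.93% of all genes. The rise was lost without N replicate 2 or 3 or H replicate 1. Of 7 metallothionein and zinc export genes 1 rose and 1 fell, against 9.62% and 20.5% of all genes. The zinc exporter SLC30A1 fell from 11.45, 11.45 and 11.62 to 10.54, 10.89 and 10.79 (not called with arrays 1 and 2, limma adjusted p = 0.0694). The rises numbered 0 with the replicate number as a block and without N replicate 1 or 2 or H replicate 1 or 2. They numbered 2 with arrays 1 and 2, against 4.62% of all genes, and 2 in the fit of all 18 arrays and after quantile normalization. Of 5 replication-dependent histone genes 1 was higher and 0 were lower, against 9.62% and 20.5% of all genes. The gene was H2BC5 (7.99, 7.63 and 8.20 in N, 8.68, 9.52 and 9.38 in H), and its other probe set was at -0.03 and not called. In this list 0 were higher with arrays 1 and 2, against 4.62% of all genes. The H2BC5 call was lost without N replicate 1, N replicate 2 or H replicate 3 (adjusted p up to 0.0645).

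Probe sets of the same gene sometimes disagreed. Of 1140 genes with at least 2 called probe sets, 66 had them in opposite directions. TAF9B, a subunit of the general transcription machinery, had the widest gap, with 1 probe set at 7.65, 7.70 and 7.41 in N and 11.48, 10.98 and 10.66 in H (log2 change 3.45) and another called lower by 0.63. PSMB4, a proteasome subunit, had 1 probe set called at -1.0 and another at 0.82, while the one of highest mean signal was at 0.09 and was not called. Which transcripts these probe sets read was not tested.

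The difference of H minus N in replicate 3 departed from the mean of replicates 1 and 2 by a median of 0.16 log2 units over 11000 genes, and by more than 1 in 68. After CXCL8 and IL24, the largest departures were those of RIMKLA (1.92), PDE4DIP (1.91) and GDF15 (1.85). CXCL8, IL24 and GDF15 stood apart on N replicate 2 rather than in replicate 3. RIMKLA was under the presence threshold on all N arrays and at 4.76, 3.39 and 5.84 in H, and its rise was called with all arrays and when H replicate 2 was left out (limma adjusted p = 0.0375 and 0.00877), but not without any other array (up to 0.108). PDE4DIP was at 4.99, 4.97 and 4.21 in N and 4.72, 4.63 and 5.81 in H and was not called.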
